A study of Mus musculus with 6 samples.

Results

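MicroRNA gene rows and the long noncoding transcripts that host microRNAs were followed in white adipocytes after deletion of Dicer1. Members were the rows whose Entrez ID maps to a mouse symbol of an annotated microRNA gene (Mir or Mirlet with a number), together with the transcripts named Mir...hg and Meg3, Rian, Mirg and Dnm3os. This gave 77 microRNA rows and 10 host transcripts, 87 members of 13734 rows in the deposited table. Mirt1 and Mira, long noncoding genes whose symbols only resemble these, were left out. The cells came from an immortalized line of mouse white subcutaneous preadipocytes with floxed Dicer1 alleles and the inducible recombinase Cre-ERT2, taken to adipocytes in culture. In the DICERKO group (3 libraries) the deletion was induced from day 6 by 48 h of 10 µM 4-hydroxytamoxifen (4-OHT), and the control group (3 libraries) carried the same floxed alleles and Cre-ERT2 and received ethanol. Every culture of both groups then had 10 µM of the beta-adrenergic agonist isoproterenol for 6 h. The sample titles call the control group WT control and do not mention floxed alleles or Cre-ERT2. No library had the deletion without 4-OHT or 4-OHT without the deletion, so effects of the drug and of the deletion cannot be told apart. The libraries are labelled biological replicates of the same line, and nothing says that their cultures were grown apart, so the p-values here reflect library-to-library spread, which may be technical.

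A microRNA gene is first copied by RNA polymerase II into a long primary transcript, usually capped and polyadenylated. Drosha and Dgcr8 cut a hairpin out of it in the nucleus, Xpo5 exports the hairpin, and Dicer1 trims it in the cytoplasm to the short mature form that Argonaute proteins carry. The hairpin and the mature form have no poly(A) tail, so poly(A)-selected libraries do not measure mature microRNAs: a microRNA row holds reads of primary transcripts, or of other transcripts that cover the same bases. In fat cells microRNAs are known as regulators of differentiation, of browning and of inflammatory signalling.

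The rows join through shared seeds, bases 2 to 8 of the mature form, which set most of target recognition. Of the 77 microRNA rows 65 had an entry in the RefSeq microRNA table (GRCm38.p6), from which the sequences here come, 5′ to 3′ with the seed in capitals. Mirlet7d, Mirlet7e and Mirlet7i belong to the let-7 family, the classic repressors of growth genes, and the same seed GAGGUAG is found in 11 mature names of that table.
mmu-let-7d-5p (Mirlet7d): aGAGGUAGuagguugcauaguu
mmu-let-7e-5p (Mirlet7e): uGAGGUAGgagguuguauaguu
mmu-let-7i-5p (Mirlet7i): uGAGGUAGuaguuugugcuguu

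The miR-196 pair lies in the Hox clusters, and its seed AGGUAGU is the let-7 seed shifted by a base.
mmu-miR-196a-5p (Mir196a-1): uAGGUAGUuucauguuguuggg
mmu-miR-196b-5p (Mir196b): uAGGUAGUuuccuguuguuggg

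The seed AUUGCAC ties rows Mir25 and Mir32 to Mir92-1, whose hairpin lies in the host transcript Mir17hg.
mmu-miR-25-3p (Mir25): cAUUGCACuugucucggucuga
mmu-miR-32-5p (Mir32): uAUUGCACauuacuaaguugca
mmu-miR-92a-3p (Mir92-1): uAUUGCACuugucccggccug

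The miR-199 3p form is the same molecule from rows Mir199a-1 and Mir199b and from Mir199a-2, which lies in the host Dnm3os.
mmu-miR-199a-3p (Mir199a-1, Mir199a-2): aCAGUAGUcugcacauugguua
mmu-miR-199b-3p (Mir199b): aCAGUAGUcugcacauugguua

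The hosts described here also carry microRNAs with seeds other than those above, shown because these are the products a change of the host would bear on. The seeds of miR-100, miR-125b and miR-214 are found in 3, 5 and 2 mature names of the RefSeq table. Those of miR-22, miR-155 and miR-370 are found in 1 each. Mir100hg also holds Mirlet7a-2, whose sequence is not shown.
mmu-miR-100-5p (in Mir100hg): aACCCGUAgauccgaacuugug
mmu-miR-125b-5p (in Mir100hg): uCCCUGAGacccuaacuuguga
mmu-miR-22-3p (in Mir22hg): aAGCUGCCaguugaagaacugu
mmu-miR-155-5p (in Mir155hg): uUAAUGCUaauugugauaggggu
mmu-miR-214-3p (in Dnm3os): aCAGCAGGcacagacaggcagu
mmu-miR-370-3p (in Rian): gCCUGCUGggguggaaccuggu

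The deposited values are log2 CPM, reads relative to the library size (counts per 1e6 reads, CPM). Library sizes implied by the values ran from 17594568 to 42331787 in DICERKO and from 22670891 to 23494396 in control libraries, with DICERKO replicate 3 the deepest. Dicer1 read 5.43, 5.47 and 5.49 log2 CPM in DICERKO replicates 1 to 3, against 6.14, 6.09 and 6.14 in controls. Dicer1 fell by 0.66 in log2 CPM, with an SE of 0.10 and an adjusted p of 0.0150 in limma, and that call was lost in 5 of the 6 fits that leave out a library, with differences from -0.68 to -0.64. DICERKO replicate 3 stood apart in its cell markers. The summed level of 8 adipocyte markers was 9112, 9182 and 2536 CPM in DICERKO replicates 1 to 3, against 5240, 4627 and 5811 CPM in controls, and that of 8 preadipocyte and fibroblast markers was 4361, 4985 and 4086 CPM, against 7568, 8591 and 7464 CPM. The collagen genes Col1a1 and Col3a1 and the proteoglycan gene Dcn carried the second sum, with differences of -0.70, -1.44 and -0.81, while Pdgfra, Pdgfrb and Dlk1 differed by -0.06, 0.02 and 0.29 with overlapping groups. Of the 7 tested markers of that list, 1 passed in limma, Col3a1 (adjusted p = 0.00856). The median difference of the 7 was -0.46. Without DICERKO replicate 3, 4 of the 7 passed lower and 0 higher, where 7.22% of all tested genes passed lower. In that fit 7 of the 8 adipocyte markers passed higher and 0 lower, where 12.5% of all tested genes passed higher. Of 6 macrophage markers 3 had rows (Cd68, Csf1r and Lyz2), and their sum was 28.4 to 31.7 CPM in DICERKO and 23.4 to 28.2 CPM in control libraries. In bulk RNA, fewer cells of a type and less RNA per cell cannot be told apart. The difference of each tested member is therefore given also without DICERKO replicate 3.

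MicroRNA rows held very few reads. Their median was 15 reads over the 6 libraries together, the lowest total was 5 (also the lowest of any row in the table), 67 of 77 rows had fewer than 20 reads in every library and 42 had a count of 0 in at least 1 library. Summed over all 77 rows they came to 57.7, 62.0 and 61.4 CPM in DICERKO replicates 1 to 3, against 60.4, 70.0 and 72.7 CPM in controls. A single row, Mir682, took 71.8% of these reads. Without it the sums were 17.4, 19.9 and 16.7 CPM in DICERKO and 18.4, 16.8 and 19.5 CPM in control libraries, ranges that overlapped. The 10 host transcripts together stood at 60.9, 66.9 and 57.6 CPM in DICERKO and at 65.9, 60.5 and 72.5 CPM in controls, which overlapped as well.

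Reads were counted by where a row lies in the genome. Within an exon of another gene on the same strand lay 25 rows (GENCODE M21), with a median of 37 reads and up to 7042. Another 8 rows lay partly in such an exon (median 19.5 reads), 23 in an intron of a same-strand gene (median 10 reads), 8 met a gene on the opposite strand only (median 17.5 reads) and 13 met no other gene (median 14 reads). Intron rows included Mir186 in Zranb2, Mir7-1 in Hnrnpk, Mir32 in Tmem245 and Mir301 in Ska2. Exon rows included Mir25 in Mcm7, Mir3064 in Ddx5, Mir568 in Zbtb20 and Mir196b in Hoxa9. An exon here is an exon of any GENCODE transcript of the gene. A row counted there can therefore lie in an intron of the gene's other transcripts, and the split is not one of exonic and intronic microRNAs. The counting is not stated to use strand or to treat shared bases in any given way, so reads of a covering gene and of a microRNA primary transcript cannot be told apart in these rows.

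**Figure D1:**
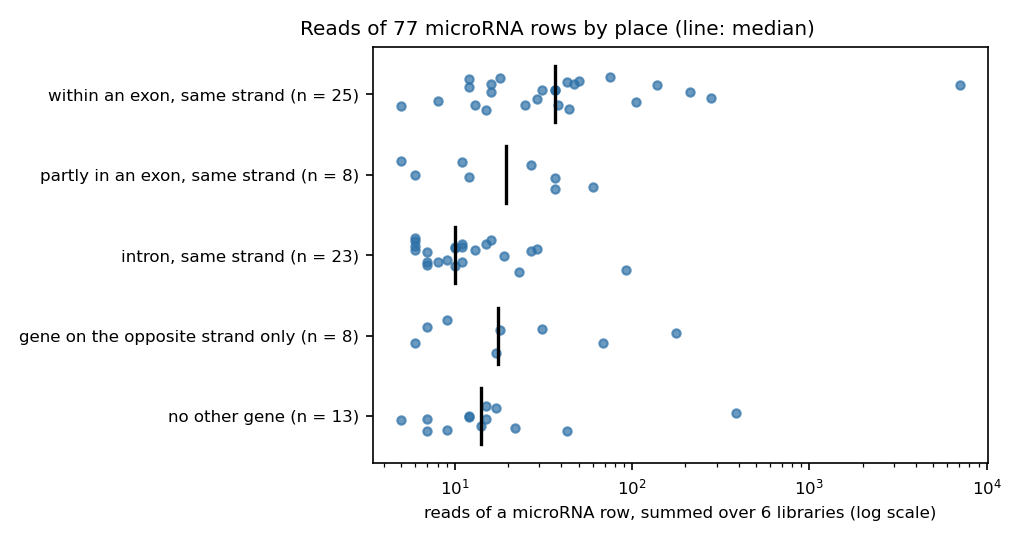
Reads summed over the 6 libraries (log scale) for each of the 77 microRNA rows, grouped by where the row lies relative to other genes; points are rows, spread vertically only to separate them, and the line is the median. Rows within a same-strand exon (of any GENCODE transcript) had a median of 37 reads and intron rows a median of 10. The point at 7042 reads is Mir682.

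The filter for tests kept the 10054 genes that reached 1 CPM in 3 or more libraries, of which 11 were members: 5 microRNA rows and 6 hosts. None of the 11 passed limma's test at an adjusted p of 0.05. Of all tested genes 0.438% did (15 higher and 29 lower in DICERKO), a rate at which 0 of 11 says nothing particular about the members. At an unadjusted p under 0.05 there were 2 members (Rian and Mir100hg), where the share of all tested genes was 15.8%. Adjusted p ranged from 0.228 to 0.966, 5 differences were positive and 6 negative, and their median was -0.02, beside 0.02 over all tested genes. Without DICERKO replicate 3, Mir100hg alone passed, 1 of 11, where 19.7% of all tested genes passed. The groups did not overlap in 2 of the 11, or 18.2%, beside 20.2% of all tested genes.

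**Figure D2:**
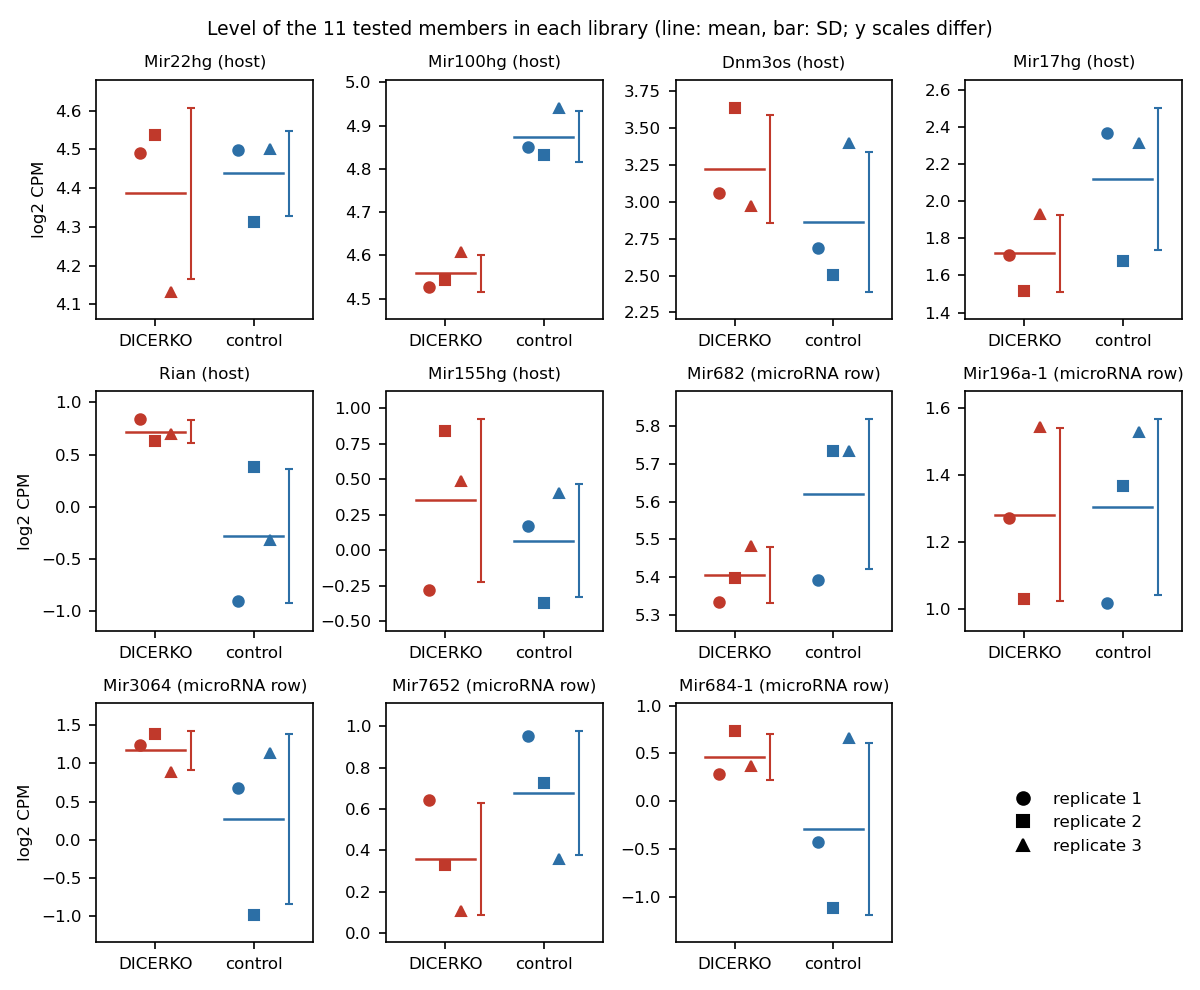
Level in log2 CPM of the 6 tested hosts and 5 tested microRNA rows in DICERKO (left, red) and control (right, blue) libraries, with 1 marker shape per replicate, a line for the mean and a bar for the SD (n = 3 each); the y scales differ between panels. The groups do not overlap for Mir100hg, lower in DICERKO, and for Rian, higher in DICERKO; in the other 9 panels they do.

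Mir100hg is the primary transcript of miR-100, let-7a-2 and miR-125b-1, of which let-7 is known to restrain growth genes. It lies on chromosome 9 (41376526 to 41615185, plus strand, GRCm38), and all 3 hairpins fall inside its span. It read 4.53, 4.54 and 4.61 log2 CPM in DICERKO replicates 1 to 3, against 4.85, 4.83 and 4.94 in controls. The levels were 4.56 ± 0.04 in DICERKO and 4.87 ± 0.06 in controls (SD, n = 3 each), from 405, 565 and 1031 reads in DICERKO and 677, 645 and 707 reads in control libraries. Every DICERKO library lay below every control. The difference was -0.32 (SE 0.11, limma adjusted p = 0.228), and it kept its direction in each fit that left out a library (-0.34 to -0.28, limma adjusted p 0.0407 to 0.567). Without DICERKO replicate 3 it fell by 0.34 (limma adjusted p = 0.0407), where 7.22% of all tested genes passed downwards. With no filter that fit gave an adjusted p of 0.0505 in limma and 0 members called, where 14.3% of all rows passed (9.04% higher and 5.24% lower), so the call depends on the filter as well as on the library. Col1a1, Col3a1 and Dcn were lower in the same libraries, and their part in this difference was not tested.

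The transcripts of the imprinted Dlk1-Dio3 domain on chromosome 12 gave unequal differences. Meg3, Rian and Mirg are maternally expressed noncoding RNAs of this domain, which codes for many microRNAs and C/D box small nucleolar RNAs. Rian (109603945 to 109661716, plus strand), with the hairpins of miR-341, miR-1188 and miR-370, read 0.84, 0.63 and 0.69 log2 CPM in DICERKO replicates 1 to 3, against -0.91, 0.38 and -0.32 in controls. This came from 31, 37 and 68 reads in DICERKO and 12, 29 and 18 reads in control libraries, and every DICERKO library lay above every control. The difference was 1.00 (SE 0.34, limma adjusted p = 0.228), and 1.02 without DICERKO replicate 3 (limma adjusted p = 0.0726). Left out in turn, single libraries moved it between 0.69 and 1.33.

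Meg3, a growth-inhibiting noncoding RNA, was below the filter, with 14, 31 and 34 reads in DICERKO and 22, 25 and 21 reads in control libraries. Its groups overlapped, and with no filter its difference was -0.07 (limma adjusted p = 0.937), or 0.05 without DICERKO replicate 3 (0.949). Mirg, which holds 10 hairpins of the RefSeq table in its span, had 0, 1 and 3 reads in DICERKO and 0, 1 and 2 in controls, too few to show a difference at this depth. No microRNA row lay in the spans of these transcripts. Of the protein-coding neighbours, Dlk1, an inhibitor of adipogenesis, differed by 0.29 (limma adjusted p = 0.513) and read 5.57, 5.58 and 6.44 log2 CPM in DICERKO against 5.65, 5.83 and 5.25 in controls. Without DICERKO replicate 3, the highest library, the Dlk1 difference was 0.00 (limma adjusted p = 0.992). Dio3, which inactivates thyroid hormone, read 0.84, -0.18 and 0.39 log2 CPM in DICERKO against 1.27, 0.76 and 1.22 in controls, a difference of -0.73 (limma adjusted p = 0.291), or -0.75 without DICERKO replicate 3 (0.111). The difference between Rian and Meg3 was not tested.

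Mir17hg is the transcript of the miR-17 to miR-92 cluster, known for driving proliferation. In the RefSeq annotation its span on chromosome 14 (115044390 to 115046728, plus strand) holds the hairpin of Mir92-1 in full, while Mir17, Mir18, Mir19a and Mir20a end 636, 444, 309 and 127 bases before its start. Mir17hg read 1.71, 1.52 and 1.93 log2 CPM in DICERKO against 2.37, 1.68 and 2.31 in controls, from 57, 69 and 161 reads in DICERKO and 121, 72 and 114 reads in control libraries. The groups overlapped through control replicate 2. The difference was -0.40 (SE 0.23, limma adjusted p = 0.395), and -0.51 without DICERKO replicate 3 (limma adjusted p = 0.129).

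Dnm3os, transcribed against Dnm3 and known in fibroblast and skeletal development, carries miR-199a-2 and miR-214 on chromosome 1 (162217623 to 162225550, plus strand). It read 3.06, 3.64 and 2.97 log2 CPM in DICERKO against 2.69, 2.50 and 3.40 in controls. Control replicate 3 lay inside the DICERKO range. The difference was 0.36 (SE 0.25, limma adjusted p = 0.471), and 0.48 without DICERKO replicate 3 (limma adjusted p = 0.149). Single libraries left out moved it between 0.15 and 0.63. The row Mir199a-1, which gives the same miR-199a-3p from chromosome 9, opposite to an intron of Dnm2, had 5, 8 and 10 reads in DICERKO against 4, 1 and 3 in controls. Pooled, these were 0.273 CPM in DICERKO (95% Poisson interval 0.173 to 0.410) and 0.116 CPM in controls (0.0500 to 0.228), intervals that overlap and that cover counting error only. Mir199b, on the strand opposite to Dnm1, had 0, 2 and 4 reads in DICERKO and 0, 3 and 0 in controls.

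Mir22hg, the host of miR-22, was the host with the highest level per length. Per kilobase of GENCODE exon it stood at 10.9 ± 1.6 CPM in DICERKO and 11.3 ± 0.830 CPM in controls (SD, n = 3 each). On the same scale Dnm3os stood at 1.2 ± 0.321 in DICERKO and 0.951 ± 0.333 in controls, Mir100hg at 0.985 ± 0.0297 and 1.23 ± 0.0507, Mir17hg at 0.932 ± 0.137 and 1.25 ± 0.307, and Mir155hg at 0.921 ± 0.343 and 0.735 ± 0.196, with DICERKO before control in each pair. The length decides the place of Mir17hg: its 3536 exon bases in GENCODE exceed its whole RefSeq span of 2339 bases, over which it stood at 1.41 ± 0.206 in DICERKO and 1.89 ± 0.465 CPM per kilobase in controls. The order of these hosts is therefore left out. Rian stood at 0.0894 ± 0.00662 in DICERKO and 0.0470 ± 0.0214 in controls, Meg3 at 0.0530 ± 0.0152 and 0.0544 ± 0.00574, Mir99ahg at 0.0283 ± 0.0145 and 0.0202 ± 0.0140, and Mirg at 0.00512 ± 0.00488 and 0.00599 ± 0.00596, far below the others. As a level of the whole transcript Mir22hg read 4.49, 4.54 and 4.13 log2 CPM in DICERKO and 4.50, 4.31 and 4.50 in controls, and DICERKO replicate 3 was the lowest of all 6. The difference was -0.05 (SE 0.14, limma adjusted p = 0.863) and turned to 0.08 without DICERKO replicate 3 (limma adjusted p = 0.663).

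Mir155hg, the transcript of miR-155, a microRNA of activated immune cells that also acts in adipocytes, read -0.28, 0.84 and 0.49 log2 CPM in DICERKO against 0.17, -0.37 and 0.41 in controls. The groups overlapped widely. The difference was 0.28 (SE 0.35, limma adjusted p = 0.691), and 0.21 without DICERKO replicate 3 (0.712). It was 0.60 without DICERKO replicate 1 and 0.04 without DICERKO replicate 2, a spread wider than the difference itself. Mir99ahg, named after miR-99a, had 9, 13 and 7 reads in DICERKO and 4, 4 and 12 in controls, and in the RefSeq annotation the hairpin of Mir99a lies 40508 bases beyond its end. Mirc35hg, the host of miR-182, miR-96 and miR-183, had 1, 0 and 2 reads in DICERKO and 5, 0 and 1 in controls. H19, a further noncoding host (of miR-675) that the symbols above do not cover, read 3.34, 3.62 and 4.16 log2 CPM in DICERKO against 4.39, 4.66 and 4.41 in controls. H19 differed by -0.78 (limma adjusted p = 0.112), and without DICERKO replicate 3 it fell by 1.00 (limma adjusted p = 0.000125).

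**Figure D3:**
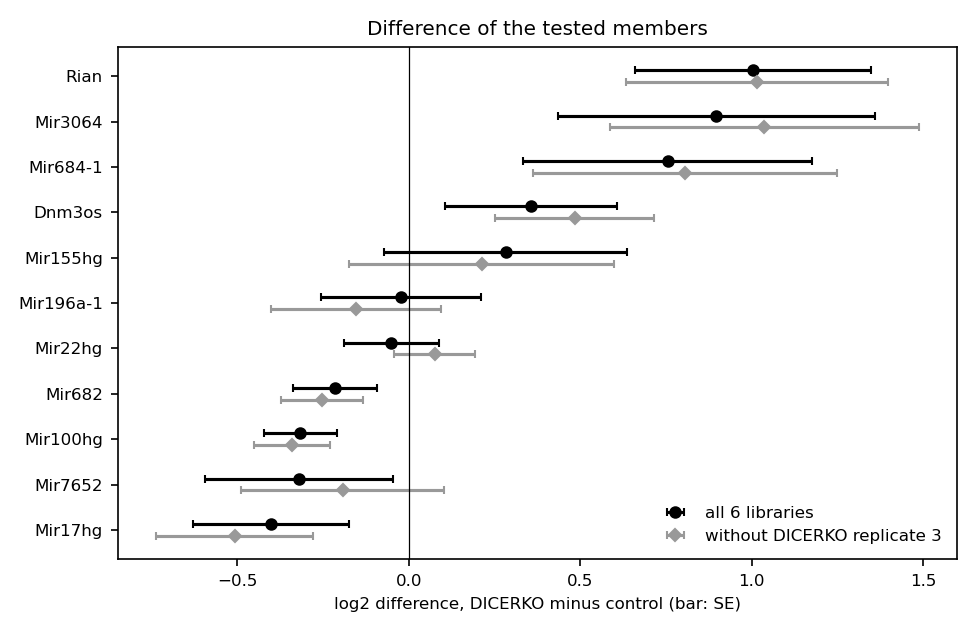
Difference in log2 CPM, DICERKO minus control, for the 11 tested members, with bars for the SE, from all 6 libraries (black circles) and without DICERKO replicate 3 (grey diamonds). Rian is at the top with 1.00 and Mir17hg at the bottom with -0.40, and the sign of Mir22hg changes between the fits.

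The most abundant microRNA row, Mir682 (chromosome 13, 75645046 to 75645141, plus strand), lies in the processed pseudogene Gm4149. Its 96-base hairpin matches the coding sequence of Rpl37a, a ribosomal protein gene on chromosome 1, at 95 of 96 bases (99.0%). The substitution is C48T, counted from 1 at the hairpin's 5′ end, hairpin base first, and the base is in capitals in both sequences, written as DNA.
Mir682 hairpin: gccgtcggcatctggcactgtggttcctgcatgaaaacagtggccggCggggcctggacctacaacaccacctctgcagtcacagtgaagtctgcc
Rpl37a transcript: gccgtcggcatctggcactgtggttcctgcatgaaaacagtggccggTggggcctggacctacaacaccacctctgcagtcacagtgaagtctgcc

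A search of GENCODE transcripts with this hairpin found 35 other annotated genes that align over most of its length, among them processed pseudogenes and genes annotated as microRNAs. Some of these, such as Gm4613 and Gm24865 on chromosome 7, align alike and may share a place, so 35 is not a count of separate copies. Mir682 read 5.34, 5.40 and 5.48 log2 CPM in DICERKO against 5.39, 5.73 and 5.73 in controls, a difference of -0.21 (SE 0.12, limma adjusted p = 0.394), or -0.25 without DICERKO replicate 3 (0.143). Rpl37a read 7.27, 7.31 and 7.36 log2 CPM in DICERKO against 7.54, 7.56 and 7.30 in controls, a difference of -0.15 (SE 0.11, limma adjusted p = 0.474), or -0.17 without DICERKO replicate 3 (0.235). Reads of near-identical copies can be split between rows, so the level of Mir682 is uncertain. Mir703, with 18 reads in all, matches Eef1a1, the translation elongation factor gene, at 98.2% of its aligned bases, and the hairpin of Mir8116 matches 1 other gene at 94.8%.

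Of the other tested rows, Mir196a-1 on chromosome 11 (Hoxb cluster) met no other gene. It read 1.27, 1.03 and 1.54 log2 CPM in DICERKO and 1.02, 1.37 and 1.53 in controls, with a difference of -0.02 (SE 0.23, limma adjusted p = 0.966), or -0.15 without DICERKO replicate 3 (0.672). Mir196b, in an exon of Hoxa9, had 7, 5 and 9 reads in DICERKO and 6, 2 and 8 in controls. Neither row of the pair separated the groups.

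Mir3064 lies in an exon of Ddx5, an RNA helicase gene whose product is a cofactor of Drosha. The row had 41, 63 and 78 reads in DICERKO and 37, 11 and 50 in controls, 0.240% of the reads on Ddx5. Its difference was 0.90 (SE 0.46, limma adjusted p = 0.362), and 1.04 without DICERKO replicate 3 (0.115). Without control replicate 2, the lowest library, it was 0.27 (limma adjusted p = 0.781). Ddx5 read 9.63, 9.55 and 9.63 log2 CPM in DICERKO and 9.53, 9.37 and 9.65 in controls, a difference of 0.09 (SE 0.12, limma adjusted p = 0.697). Mir7652, in an exon of the stress granule gene G3bp1, read 0.64, 0.33 and 0.10 log2 CPM in DICERKO and 0.95, 0.73 and 0.36 in controls, a difference of -0.32 (SE 0.28, limma adjusted p = 0.545), or -0.19 without DICERKO replicate 3 (0.659). G3bp1 read 8.25, 8.09 and 8.29 log2 CPM in DICERKO and 8.36, 8.21 and 8.36 in controls, a difference of -0.10 (limma adjusted p = 0.639). Mir684-1, placed by RefSeq on chromosome 2 opposite to introns of Dusp19 and Nup35, read 0.29, 0.74 and 0.36 log2 CPM in DICERKO and -0.42, -1.11 and 0.66 in controls. The difference was 0.75 (SE 0.42, limma adjusted p = 0.389), or 0.80 without DICERKO replicate 3 (0.204). In the deposited row order Mir684-1 falls between members of chromosomes 10 and 11, so its place is uncertain. Without control replicate 2, the lowest library, the Mir684-1 difference was 0.34. In all of these the groups overlapped.

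Each microRNA row was set beside 1 overlapping gene, on the opposite strand only where no same-strand gene lay. This left out opposite-strand genes such as Iars2 at Mir215, Micu3 at Mir7666 and Krt80 at Mir1941. For 39 rows (Mir684-1 among them) the chosen gene was tested. Of these 38 genes, 0 passed in limma with all libraries, beside 0.438% of all tested genes. Without DICERKO replicate 3 there were 6 of 38 (15.8%), beside 19.7% of all tested genes, so neither share sets these genes apart. Those higher in DICERKO were Hoxa9, Tmem245 and Mrpl51, by 0.47, 0.41 and 0.61, and those lower were Ache, Actg1 and Rpl13, with differences of -1.24, -0.50 and -0.34. With all libraries, the differences of the rows (fitted with no filter) ran from -1.95 to 2.14 and those of the genes from -0.94 to 0.46, and 23 of the 39 had the sign of their gene. The signs are a description, with no test.

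The let-7 rows and the other families did not separate the groups, apart from Mir199a-1. Mirlet7d, in an exon of the noncoding gene 6720427I07Rik, had 1, 7 and 10 reads in DICERKO and 7, 8 and 5 in controls. Mirlet7i had 5, 7 and 14 reads in DICERKO and 16, 4 and 4 in controls, and Mirlet7e, in an intron of Spaca6, had 0, 3 and 3 in DICERKO and 0, 2 and 1 in controls. Pooled, Mirlet7d stood at 0.214 CPM in DICERKO (95% Poisson interval 0.127 to 0.338) and 0.289 CPM in controls (0.177 to 0.446), and Mirlet7i at 0.309 (0.202 to 0.452) and 0.347 CPM (0.222 to 0.516). Of the rows with the seed AUUGCAC, Mir25 had 4, 6 and 10 reads in DICERKO and 7, 5 and 5 in controls, and Mir32 had 1, 3 and 0 in DICERKO and 0, 0 and 3 in controls. Of the miR-23a, miR-27a and miR-24-2 cluster on chromosome 8, in which miR-27a is known as a repressor of adipogenesis, Mir24-2 had the most reads, 5, 11 and 8 in DICERKO and 8, 15 and 13 in controls. Mir23a had 0, 1 and 3 reads in DICERKO and 4, 0 and 1 in controls, and Mir27a had 0, 0 and 1 in DICERKO and 3, 0 and 1 in controls.

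Below the filter lay 76 members, 72 microRNA rows and 4 hosts, with 5 to 147 reads in all. A fit over all 13734 rows with no filter called 0 of the 87 members, where 0.408% of all rows passed (0.153% higher and 0.255% lower), and 7 members had an unadjusted limma p under 0.05, where 14.0% of all rows did. The smallest adjusted p was 0.158 (limma), for Mir1941. Among the 72 microRNA rows below the filter the groups did not overlap in 9, or 12.5% (4 higher and 5 lower in DICERKO), while 13.5% of all rows below the filter were separated in this way (4.38% higher and 9.1% lower). A share near that of all rows is no result about microRNA rows, and the 9 are given as counts of reads.

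Mir301, in an intron of the kinetochore gene Ska2, had 2, 2 and 2 reads in DICERKO and 0 in each control, at least 1.64-fold higher if 3 reads over the control group are taken as the floor. Mir1941, in an intron of the antisense noncoding gene Gm35853, had 0 reads in each DICERKO library and 3, 4 and 3 in controls. Its pooled control level was 4.06-fold the same floor over the DICERKO group. The intervals were 0 to 0.0438 CPM in DICERKO and 0.0693 to 0.266 CPM in controls. They cover counting error only, and the row was picked because its groups did not overlap. Mir8116, in an intron of the acetylcholinesterase gene Ache, had 3, 4 and 6 reads in DICERKO and 1, 0 and 1 in controls, while Ache itself read -0.61, 0.07 and 0.63 log2 CPM in DICERKO against 0.79, 1.57 and 0.54 in controls. Ache differed by -0.94 (limma adjusted p = 0.279), and without DICERKO replicate 3 it fell by 1.24 (limma adjusted p = 0.0223). Mir3960 had 8, 7 and 16 reads in DICERKO and 4, 6 and 2 in controls. It lies in an exon of the transcription kinase gene Cdk9 in GENCODE, but outside the RefSeq span of that gene. Its neighbour Mir2861, placed in the same way, had 5, 5 and 3 reads in DICERKO and 8, 3 and 1 in controls. Mir199a-1 is described above.

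Lower in every DICERKO library, by level in CPM, were also Mir6385, Mir6516, Mir697 and Mir8094. Mir6385, in an exon of Pml on the opposite strand, had 6, 7 and 10 reads in DICERKO and 15, 10 and 21 in controls, and Pml, the nuclear body protein gene, differed by -0.38 (limma adjusted p = 0.228), or -0.31 without DICERKO replicate 3 (0.0778). Mir6516, in an exon of the small nucleolar RNA host Snhg20, had 2, 2 and 6 reads in DICERKO and 8, 5 and 8 in controls, and Snhg20 differed by 0.04 (limma adjusted p = 0.918). Mir697 had 0, 1 and 2 reads in DICERKO and 4, 2 and 2 in controls, and Mir8094 had 0, 0 and 2 in DICERKO and 2, 6 and 1 in controls. For Mir8094 the closest libraries were DICERKO replicate 3 with 2 reads and control replicate 3 with 1 read, which are -4.08 and -3.94 log2 CPM, so their order comes from library size.

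**Figure D4:**
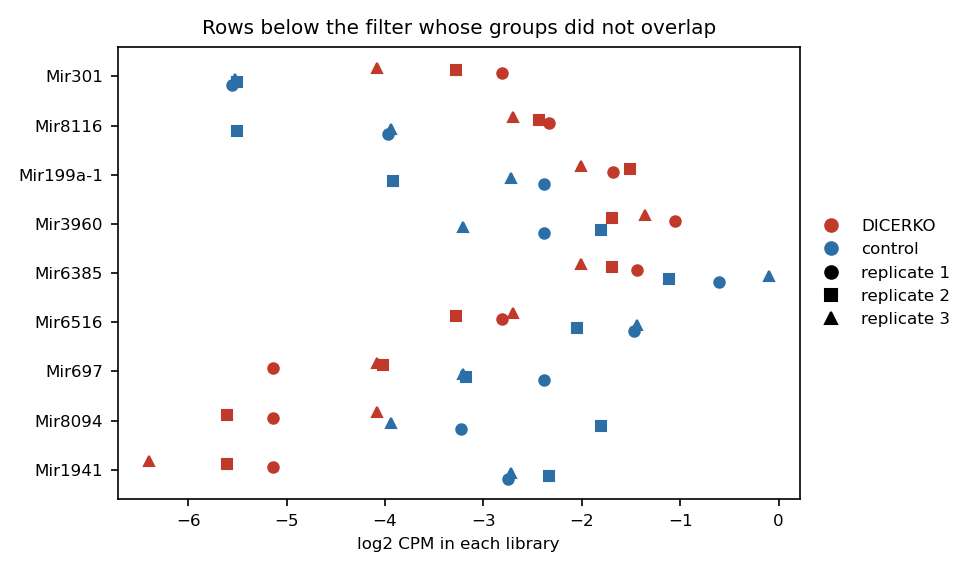
Level in log2 CPM of the 9 microRNA rows below the filter whose groups did not overlap, in DICERKO (red) and control (blue) libraries, with 1 marker shape per replicate. Mir1941 had 0 reads in all 3 DICERKO libraries and Mir301 in all 3 control libraries, and the position of a library with 0 reads reflects only its size.

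Of the genes that make and use microRNAs, 15 of the 31 entries of the chosen list had rows, and all were tested. Drosha and the Argonaute genes were among the entries with no matched row. Dicer1 fell and 0 rose with all libraries. Dgcr8, the partner of Drosha, differed by -0.02 (limma adjusted p = 0.951), the exporter Xpo5 by -0.11 (0.635), Tarbp2, a partner of Dicer1, by 0.19 (0.502), and Tnrc6a, a silencing cofactor of Argonaute, by 0.11 (0.528). The median of the 15 was -0.02, beside 0.02 over all tested genes. Without DICERKO replicate 3, Dicer1 fell by 0.67 (limma adjusted p = 0.000234), the uridylyltransferase gene Tut4, whose product tails let-7 precursors, rose by 0.46 (0.0107) and the silencing cofactor gene Tnrc6b rose by 0.29 (0.0436). These were 3 of 15 (20.0%; 13.3% higher), beside 19.7% of all tested genes in that fit (12.5% higher), so the share is that of the background.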

How the data were processed

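Per the labels, poly(A) RNA from 6 cultures went into a NEBNext Ultra II library each, read in pairs. Named in the submitters' processing notes are HISAT2, featureCounts, edgeR, Trimmomatic and FastQC, with the builds GRCm38 and mm10; versions and counting options are not given in the sources used here. The deposited values are log2 CPM. Each is the log2 of a whole read number plus 0.5 relative to library size (100% of values within 0.01 reads), so reads were recovered. That size may carry the TMM scaling which the design text names. Entrez IDs were matched to RefSeq GRCm38.p6 symbols (13682 matched, 52 did not). Overlaps came from GENCODE M21, and hairpins were searched by BLAST+ 2.17.0. The test was limma 3.58.1 (R 4.3.3) on the deposited log2 values, with a mean-variance trend, group as the only term, a minimum of 1 CPM in 3 or more libraries, and Benjamini-Hochberg adjustment over all tested genes. It was tested on simulated counts with the same dispersion for every gene and no outlying library. That run cannot tell how the test behaves with a library that stands apart, as DICERKO replicate 3 did. Differences on this scale are unreliable for low genes. The offset of 0.5 reads shrinks some, and a count of 0 in a library can widen others. Mir8102, with 0 reads in control replicate 1, differed by 1.16 with no filter. Its pooled levels were 0.309 CPM in DICERKO and 0.246 CPM in controls. Alternatives were limma-voom on recovered reads, other filters, pseudocounts and scalings, a replicate term, and each library left out.

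The members and lists were chosen with earlier results of these data known. The rule for values in every library took members called with or without DICERKO replicate 3, all hosts, the 5 tested microRNA rows, Dicer1, same-strand genes with a row over those microRNA rows (Ddx5 and G3bp1), and the imprinted neighbours with H19. Low rows with separated groups, seed-family and cluster rows, the genes over them (mostly given by their differences), Mir703, Rpl37a and named machinery genes were chosen after their values were seen. Other steps used Python 3.11.15 with scipy 1.17.1, pandas 2.3.3, numpy 2.4.6 and, for plots, matplotlib 3.10.9.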

Additional observations from a re-analysis of the deposited data

How the results depend on the processing

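Calls over all tested genes (15 higher, 29 lower) moved to 8 higher with limma-voom, to 0 higher and 2 lower with the replicate block, and to between 0 and 1257 higher and between 1 and 726 lower as each library was left out. The highest of both counts came without DICERKO replicate 3, and without control replicate 3 there were 0 and 1; the cause was not tested. The replicate numbers showed no clear pairing of the libraries. Same-numbered deviations from the group means correlated at 0.195, -0.0142 and -0.0786, and only replicate 1 correlated best with its own number. Deviations around a mean of 3 libraries depend on one another, so this check cannot exclude pairing. Members called stayed at 0 under each alternative but 1, leaving out DICERKO replicate 3 (between 0 and 1 lower over the fits that leave out a library). Calls among the microRNA machinery genes were 0 with the replicate block and between 0 and 3 as libraries were left out, and Dicer1 then differed by -0.66 (limma adjusted p = 0.119) with the block and by -0.68 to -0.64 as libraries were left out. With no filter 0 members lay below it. The median difference of tested members was -0.13 with a filter of 5 CPM, which left 4 of them, and -0.0204 to 0.0901 as libraries were left out. Signs turned for Mir196a-1 with limma-voom (0.0286) and as libraries were left out (-0.17 to 0.10), and for Mir22hg without DICERKO replicate 3 (0.0758, with -0.13 the lowest over those fits). With a median of 15 reads over 6 libraries, depth limits what most microRNA rows can show.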
